A study of Mus musculus with 2 samples.

Results

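The genes examined here are 51 interferon, interferon regulatory factor (IRF) and STAT response genes, a list named gene by gene and followed through the acetylated regions of colonic macrophages. They comprise 7 receptor and kinase genes, 14 IRF and STAT transcription factor genes and 30 effector genes, of 21887 protein-coding genes in the RefSeq table for mm10. One library came from Tle4cKO mice, in which a floxed Tle4 gene is combined with Lyz2-Cre (genotype Tle4f/f Lyz2-Cre). The other came from WT mice, whose label names Lyz2-Cre and no floxed Tle4 allele, so that Cre is present in both. Lyz2-Cre acts in myeloid cells in general, neutrophils included, and Tle4 encodes a Groucho-family corepressor. All mice were C57BL/6 males of 11.1 weeks, sorted at the same time, and the labels name no treatment. Cells with CD64, little Ly6C and no Siglec-F were sorted from the colons of 4 mice per genotype and pooled, which left 1 library for each genotype and no replicate. Acetylation of histone H3 at lysine 27 (H3K27ac), found at promoters and enhancers in use, was profiled by CUT&Tag, which cuts and tags DNA beside a bound antibody. The data are 1 list of peak summits per library, with 2350 summits for Tle4cKO and 10474 for WT on the chromosomes used. A gene was counted as marked at a gene end when a summit lay within 1 kb of either outer end, and as marked nearby when a summit lay in the gene or within 10 kb of it.

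Interferons are secreted proteins that alert cells to infection. Type I interferons bind a receptor of the chains IFNAR1 and IFNAR2, and interferon gamma a receptor of IFNGR1 and IFNGR2. Both receptors signal through Janus kinases, which phosphorylate STAT proteins. STAT proteins, alone or joined with IRF9, then enter the nucleus and bind short DNA elements, the STAT site and the interferon-stimulated response element (ISRE), in the promoters of interferon-stimulated genes. Macrophages carry both receptors.

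Each summit carries a score, read as the authors' −log10 p- or q-value for that peak. The score grows with read depth, which is unknown, so scores are given for each list by itself and as a percentile of that list. A gene without a summit is a gene at which no peak was called; signal below the calling threshold may still be there. With 1 library per genotype no test between Tle4cKO and WT was possible and no p-value is given. The WT list held 4.46 summits for each Tle4cKO summit. No summit of either list lay within 10 kb of Tle4 or Lyz2, so the summits do not check the genotype labels. Of 10 macrophage marker genes, 0 had a Tle4cKO summit within 10 kb and 8 had a WT summit, among them Fcgr1, which encodes CD64 (5.49 in WT), Cd14 (5.73), Cd68 (4.28) and Csf1r (3.46, not at a gene end). Over all genes, 11.6% had a Tle4cKO summit within 10 kb and 39.2% a WT summit. At the Tle4cKO share, a count of 0 among 10 genes is not informative. The labelled cell type thus had defining markers in the WT list and could not be checked in the Tle4cKO list. The same shares over all genes apply to the 6 lists that follow. Of 10 genes in each of 6 lists for other cell types, Tle4cKO summits lay within 10 kb of 1 B and plasma cell gene (Jchain), 1 plasmacytoid dendritic cell gene (Tcf4) and 1 fibroblast gene (Fap). WT summits lay near 1 epithelial, 2 T cell, 3 B and plasma cell, 4 plasmacytoid dendritic cell and 2 fibroblast genes, and no neutrophil gene had a summit in either list. Bst2 is both one of the 51 genes and one of the dendritic cell markers. The part of such cells in the results was not tested.

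At gene ends, 7 of the 51 genes had a Tle4cKO summit (13.7%, exact 95% interval 5.70 to 26.3%) and 18 had a WT summit (35.3%, 22.4 to 49.9%). Over all protein-coding genes, 6.19% had a Tle4cKO summit and 22.6% a WT summit at an end. Both intervals take in the share over all genes. They cover counting error only, and neighbouring genes can share a summit. In pooled cells, fewer cells with the mark and less of the mark per cell cannot be told apart. The genes marked in both lists were Jak1, Ifnar2, Ifngr1, Stat3 and Ifi35, and they made up 9.80% of the list where 5.6% of all genes were marked in both. Gbp5 and Irgm1 had a gene-end summit in Tle4cKO alone (3.92% of the list, 0.594% of all genes). Another 13 genes had one in WT alone (25.5%, 17% of all genes), and 31 had none in either (76.8% of all genes had none). Of the 18 genes with a WT gene-end summit, 5 (27.8%, interval 9.69 to 53.5%) also had one in Tle4cKO, close to the 24.7% found over all genes.

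In the wider window the shares of marked genes again lay above those over all genes. Tle4cKO summits lay in or within 10 kb of 11 of the 51 genes (21.6%, interval 11.3 to 35.3%, all genes 11.6%). WT summits did so at 33 (64.7%, interval 50.1 to 77.6%, all genes 39.2%). The Tle4cKO interval takes in the share over all genes and the WT interval lies above it. Both cover counting error only. Both lists had a summit at 10 genes (19.6%, all genes 10.8%), WT alone at 23 (45.1%, all genes 28.4%) and Tle4cKO alone at 1 (1.96%, all genes 0.832%), which was Gbp5. No summit of either list was called at 17 genes (33.3%, all genes 60%). At 8 genes the Tle4cKO and WT summits lay within 500 bp of each other (15.7%, all genes 9.7%). The median length of the 51 genes was 18989 bp, against 17169 bp over all genes.

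The order of the libraries turned round when the WT list alone was shortened to the length of the Tle4cKO list. The WT list was cut to its 2350 highest scores, as many as the Tle4cKO list holds. Gene-end summits then lay at 7 of the 51 genes in Tle4cKO (13.7%) and at 3 in WT (5.88%), which were Jak1, Ifit3 and Ifit1. Over all genes the shares were then 6.19% in Tle4cKO and 7.51% in WT. Within 10 kb the counts were 11 in Tle4cKO (21.6%, all genes 11.6%) and 7 in WT (13.7%, close to the 12.8% of all genes). The cut kept WT summits that scored at least 6.37, and most summits at these genes scored lower. A score minimum of 5 in both lists did not turn the order round. It left gene-end summits at 2 genes in Tle4cKO (3.92%, all genes 1.97%) and 7 in WT (13.7%, all genes 12.1%). The median score of the best gene-end summit was 3.54 over the 7 genes marked in Tle4cKO, against 4.15 over all 1355 genes marked there, and 4.58 over the 18 genes marked in WT, against 5.19 over all 4951.

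**Figure D1:**
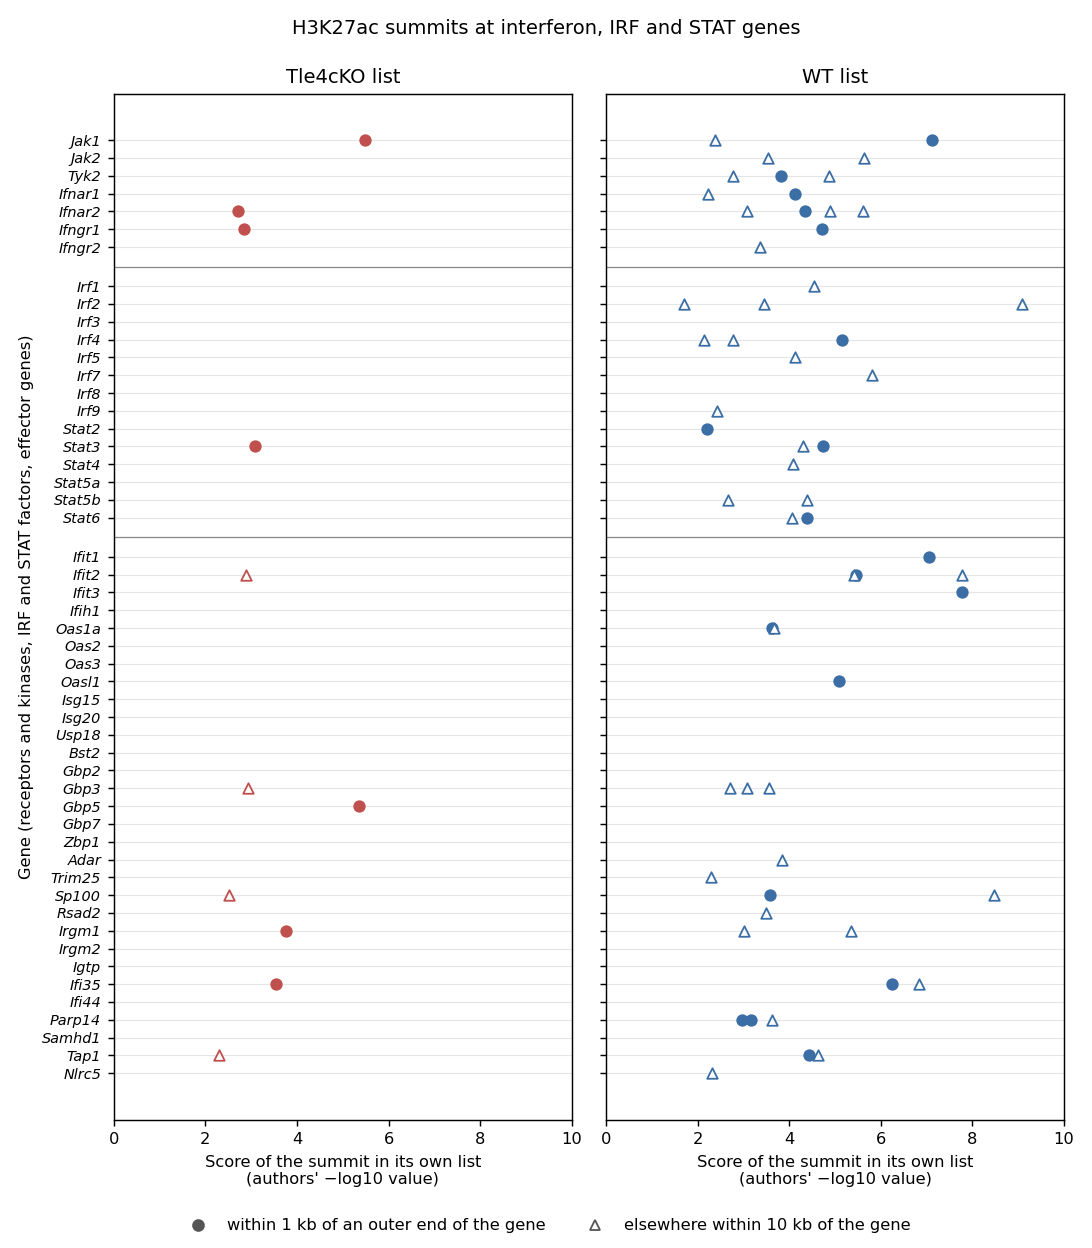
Score of every H3K27ac summit within 10 kb of the 51 genes, in the Tle4cKO list (left, 1 library) and the WT list (right, 1 library), as the authors' −log10 value on linear axes. Filled circles lie within 1 kb of an outer gene end and open triangles elsewhere; a row with no symbol has no summit. The Tle4cKO scores run from 2.29 (Tap1) to 5.48 (Jak1) and the WT scores from 1.70 to 9.07, both at Irf2.

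**Figure D2:**
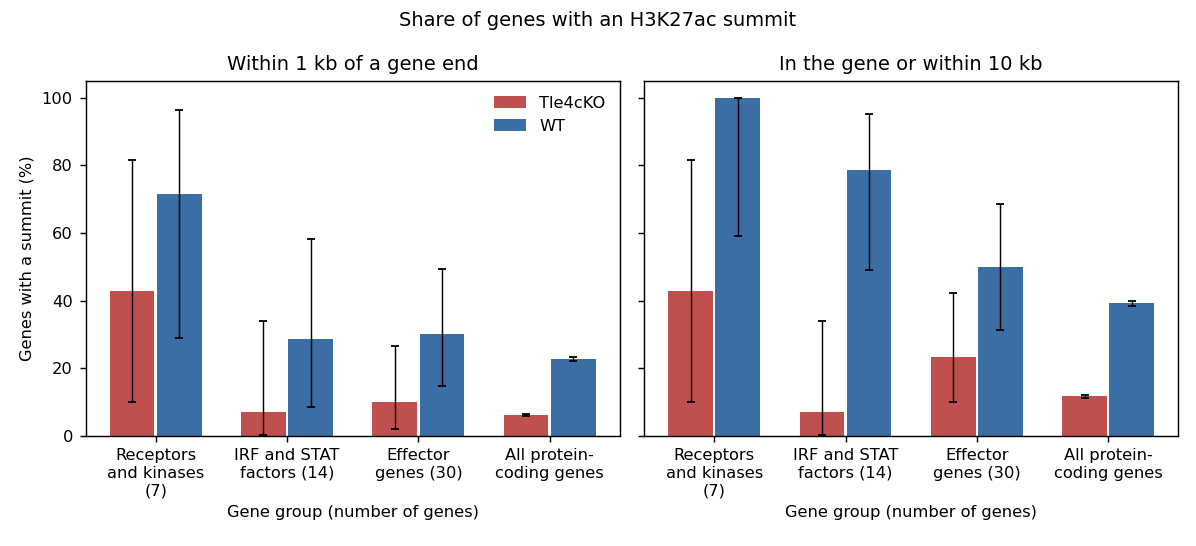
Percent of genes with a summit in Tle4cKO (red, left of each pair) and WT (blue), within 1 kb of a gene end (left) and within 10 kb (right), for the 3 roles and for all protein-coding genes. Error bars are exact 95% binomial intervals and cover counting error only. With all summits, receptors and kinases have the highest bars in both libraries and windows, and the interval of each role is wide because the groups hold 7, 14 and 30 genes.

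Where a listed transcription start could be used, the summits lay mostly just downstream of it. Whether this differs from the summits of other genes was not tested. Starts were listed for 46 of the 51 genes. Of these, 7 had a Tle4cKO summit within 1 kb of a start (15.2%, all genes with a listed start 6.92%) and 18 a WT summit (39.1%, all genes 25%), and 5 had both (10.9%, all genes 6.36%). The 7 Tle4cKO summits lay at a median of 178 bp downstream and 6 of them were downstream; the exception was Irgm1. The 18 WT summits lay at a median of 165 bp downstream and 15 of them were downstream; the exceptions were Stat3, Ifngr1 and Ifit1. Stat4 and Adar had WT summits at internal starts that the outer ends miss, 625 bp and 200 bp downstream. The closest cases to the limits were Oasl1 (908 bp from its end in WT, counted), Irgm1 (1016 bp in WT, not counted) and Trim25 (1017 bp in WT, not counted). For the 10 kb window they were the WT summits 9740 bp from Jak2 and 9922 bp from Stat5b, both counted, and those of Gbp7 at 11610 bp in Tle4cKO and 11898 bp in WT, not counted.

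**Figure D3:**
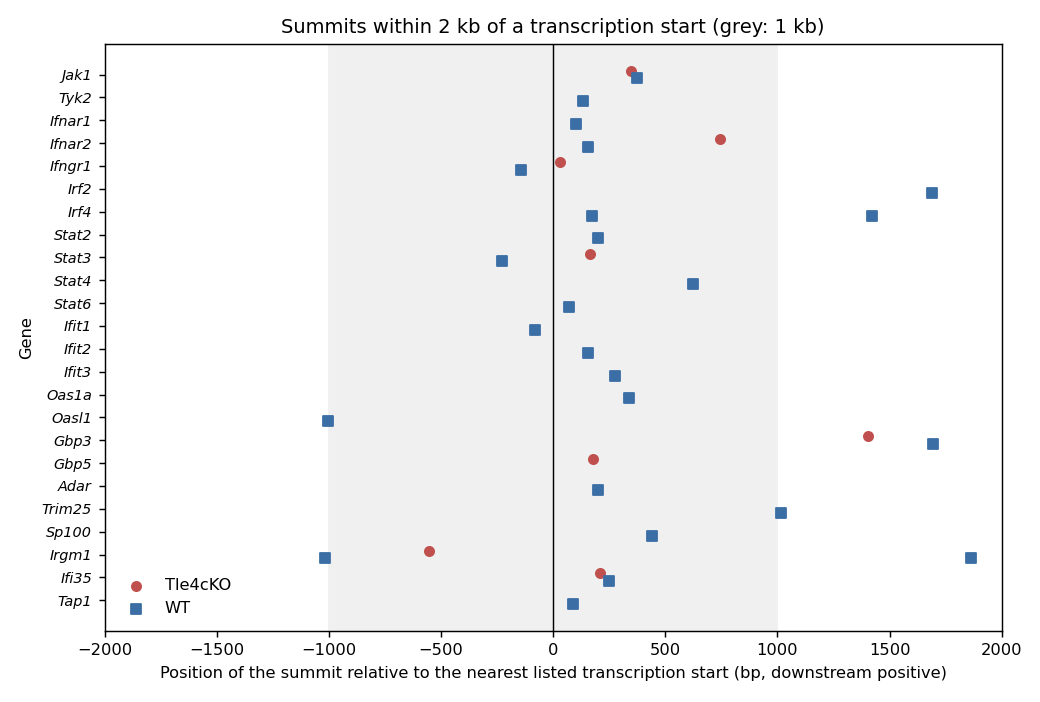
Position of each summit within 2 kb of a listed transcription start, in bp along the direction of transcription, for Tle4cKO (red circles) and WT (blue squares), 1 library each. The grey band marks 1 kb on each side. Most symbols of both libraries lie from the start to 500 bp downstream, and Jak1 and Ifi35 have both symbols almost at the same place.

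The promoters of the genes that carry these gene-end summits are shown from 250 bases upstream of the start to the base before it (RefSeq, GRCm38.p6, the assembly of mm10). The first 5 belong to the genes marked at an end in both lists, the next 2 to those marked in Tle4cKO alone, and the last 2 to Ifit3 and Ifit1, whose WT start summits scored highest among genes without one in Tle4cKO. Each is written along the transcribed strand, and capitals mark matches to the ISRE core (GAAA, any 2 bases, GAAA) or to the STAT site (TTC, any 3 bases, GAA) on either strand; matches can overlap.
Jak1 (chr4:101265224-101265473, minus strand): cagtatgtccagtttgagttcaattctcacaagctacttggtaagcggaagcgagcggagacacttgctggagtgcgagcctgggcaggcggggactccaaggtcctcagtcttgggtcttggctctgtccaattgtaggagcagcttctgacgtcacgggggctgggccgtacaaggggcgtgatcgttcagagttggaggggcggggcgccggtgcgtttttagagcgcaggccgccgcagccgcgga
Ifnar2 (chr16:91372533-91372782, plus strand): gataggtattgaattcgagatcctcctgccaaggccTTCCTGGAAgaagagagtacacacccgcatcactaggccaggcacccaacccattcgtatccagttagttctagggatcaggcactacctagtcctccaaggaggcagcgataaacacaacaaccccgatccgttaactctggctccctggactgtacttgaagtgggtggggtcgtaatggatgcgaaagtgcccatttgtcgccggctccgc
Ifngr1 (chr10:19591699-19591948, plus strand): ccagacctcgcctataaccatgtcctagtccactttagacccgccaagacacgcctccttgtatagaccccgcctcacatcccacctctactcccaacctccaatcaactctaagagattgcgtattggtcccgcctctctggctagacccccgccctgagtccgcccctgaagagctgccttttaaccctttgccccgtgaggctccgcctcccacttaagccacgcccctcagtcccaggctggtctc
Stat3 (chr11:100939541-100939790, minus strand): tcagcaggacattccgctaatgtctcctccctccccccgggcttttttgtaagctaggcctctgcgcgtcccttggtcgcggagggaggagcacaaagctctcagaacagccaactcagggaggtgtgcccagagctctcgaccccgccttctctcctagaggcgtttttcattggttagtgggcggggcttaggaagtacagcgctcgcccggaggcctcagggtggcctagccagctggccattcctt
Ifi35 (chr11:101448162-101448411, plus strand): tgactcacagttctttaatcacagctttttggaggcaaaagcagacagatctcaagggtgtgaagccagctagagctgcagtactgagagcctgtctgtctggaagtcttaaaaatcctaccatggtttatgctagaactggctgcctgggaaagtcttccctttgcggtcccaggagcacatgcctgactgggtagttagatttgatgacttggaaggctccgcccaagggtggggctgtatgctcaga
Gbp5 (chr3:142496684-142496933, plus strand): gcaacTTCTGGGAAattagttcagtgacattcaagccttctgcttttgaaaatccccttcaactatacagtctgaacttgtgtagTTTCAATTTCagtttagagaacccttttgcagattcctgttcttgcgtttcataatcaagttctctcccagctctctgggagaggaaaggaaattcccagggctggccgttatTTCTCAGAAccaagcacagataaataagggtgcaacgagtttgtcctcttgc
Irgm1 (chr11:48871421-48871670, minus strand): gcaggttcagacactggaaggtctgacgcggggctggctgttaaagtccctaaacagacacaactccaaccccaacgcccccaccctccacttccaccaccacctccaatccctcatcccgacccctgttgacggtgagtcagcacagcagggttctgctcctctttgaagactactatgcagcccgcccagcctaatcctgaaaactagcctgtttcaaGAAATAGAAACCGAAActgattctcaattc
Ifit3 (chr19:34583279-34583528, plus strand): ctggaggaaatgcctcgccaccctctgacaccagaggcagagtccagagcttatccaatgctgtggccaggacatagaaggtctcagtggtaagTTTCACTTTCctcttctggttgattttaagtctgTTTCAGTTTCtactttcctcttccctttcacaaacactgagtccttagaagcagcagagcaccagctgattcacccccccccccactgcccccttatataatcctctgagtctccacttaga
Ifit1 (chr19:34640639-34640888, plus strand): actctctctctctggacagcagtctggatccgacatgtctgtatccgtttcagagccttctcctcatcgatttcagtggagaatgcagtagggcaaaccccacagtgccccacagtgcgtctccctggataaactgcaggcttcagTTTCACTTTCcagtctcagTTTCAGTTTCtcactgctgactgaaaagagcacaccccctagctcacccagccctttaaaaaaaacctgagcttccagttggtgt

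None of the 5 promoters of genes marked at an end in both lists held an ISRE core in this window, whereas the 4 others shown did. The contrast depends on the limit of 1 kb, since Irgm1 counted as marked in both with an end window of 2 kb. It depends also on the promoters shown, since only 4 of 12 genes marked at an end in WT alone held a core. A core was in 2.98% of all promoter entries, and at that share finding none among 5 is not informative. Ifit3 and Ifit1 held 2 cores each, Irgm1 held 2 that overlap, and Gbp5 held 1 core and 2 STAT sites. Of the 5 promoters marked in both, only that of Ifnar2 held a STAT site. Across the list, 17 of 46 genes with a promoter entry held an ISRE core, in 28.8% of their 59 promoter entries against 2.98% of all 32851 entries in the table. STAT sites were in 22.0% of the entries, against 7.02% of all. By role, the ISRE core was in 0 of 7 receptor and kinase genes, in 3 of 14 IRF and STAT genes (Irf2, Stat2 and Stat4) and in 14 of 25 effector genes. By gene-end summits, a core was in 2 of 2 genes marked in Tle4cKO alone, 4 of 12 marked in WT alone, 0 of 5 marked in both and 11 of 27 marked in neither, among them Isg15 with 3 overlapping cores. By summits within 10 kb, a core was in 2 of 10 genes marked in both (Gbp3 and Irgm1) and 7 of 21 marked in WT alone. It was also in the 1 gene marked in Tle4cKO alone and in 7 of 14 marked in neither. A match is a description of the letters and not evidence that a factor binds there. The WT summit of Ifit1 lay 82 bp upstream of the start, inside the core that runs from 85 to 76 bp upstream.

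Of the receptor and kinase genes, 3 of 7 had a gene-end summit in Tle4cKO (42.9%, interval 9.90 to 81.6%, all genes 6.19%) and 5 of 7 a WT summit (71.4%, 29.0 to 96.3%, all genes 22.6%). Within 10 kb, 3 had a Tle4cKO summit (42.9%, all genes 11.6%) and all 7 had a WT summit (all genes 39.2%). With all summits these shares were the highest of the 3 roles, and these genes were also the longest, with a median of 27.3 kb, against 19.2 kb for the factor genes and 16.1 kb for the effector genes; the part of length was not tested. The order did not hold under every setting. A score minimum of 5 left WT gene-end summits at 1 of 7 receptor and kinase genes and 5 of 30 effector genes. The share over all genes was then 12.1%. With the shortened WT list the same counts were left within 10 kb (all genes 12.8%). Jak1, the kinase that serves both interferon receptors (chromosome 4, 101151974 to 101265282), had a summit of 5.48 in Tle4cKO, at the 73.9th percentile of that list, and of 7.11 in WT, at the 83.8th percentile. These lay 345 and 376 bp downstream of its start and 31 bp apart. Jak1 was the only gene of the list to keep a gene-end summit in both libraries when scores of at least 5 were required. A weak WT summit of 2.39 lay deep in the gene. Jak1 also had the highest Tle4cKO score of all 51 genes.

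Of the interferon gamma receptor genes, Ifngr1 (chromosome 10, 19591949 to 19610229), which encodes the ligand-binding chain, was marked at its start in both lists. Its summit scored 2.84 in Tle4cKO, 31 bp downstream, and 4.72 in WT, 144 bp upstream and inside the sequence shown. The 2 summits were 175 bp apart. Ifngr2, the second chain of that receptor, had no Tle4cKO summit and a single WT summit of 3.35 inside the gene, 14781 bp from its start.

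The type I receptor genes and Ifngr2 lie in 1 run on chromosome 16 with Il10rb, which encodes a chain of the interleukin-10 receptor. In the window of 211 kb around them there was 1 Tle4cKO summit and 9 WT summits. The Tle4cKO summit scored 2.71 and lay 742 bp downstream of the start of Ifnar2. WT had a summit of 4.35 closer to that start, 155 bp downstream, and 2 more in the gene with scores of 5.61 and 4.89. The Tle4cKO and WT gene-end summits of Ifnar2 were 587 bp apart and did not count as a pair. Ifnar1 had no Tle4cKO summit and a WT summit of 4.13, 102 bp downstream of its start. A weaker WT summit of 2.22 lay 9297 bp upstream of Ifnar1. The nearest Tle4cKO summit to Ifnar1 was the one at Ifnar2, 112 kb away.

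The other kinases were marked in WT alone. Tyk2, which works at the type I receptor, had a WT summit of 3.82 at its start and a higher one of 4.86 in the gene body, 5519 bp downstream, with another of 2.77 at 5207 bp upstream. Jak2, which works at the interferon gamma receptor, had WT summits of 5.64 upstream, 9740 bp from the gene, and 3.53 in the gene, and none at an end. The nearest Tle4cKO summits lay 415 kb from Tyk2 and 210 kb from Jak2.

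**Figure D4:**
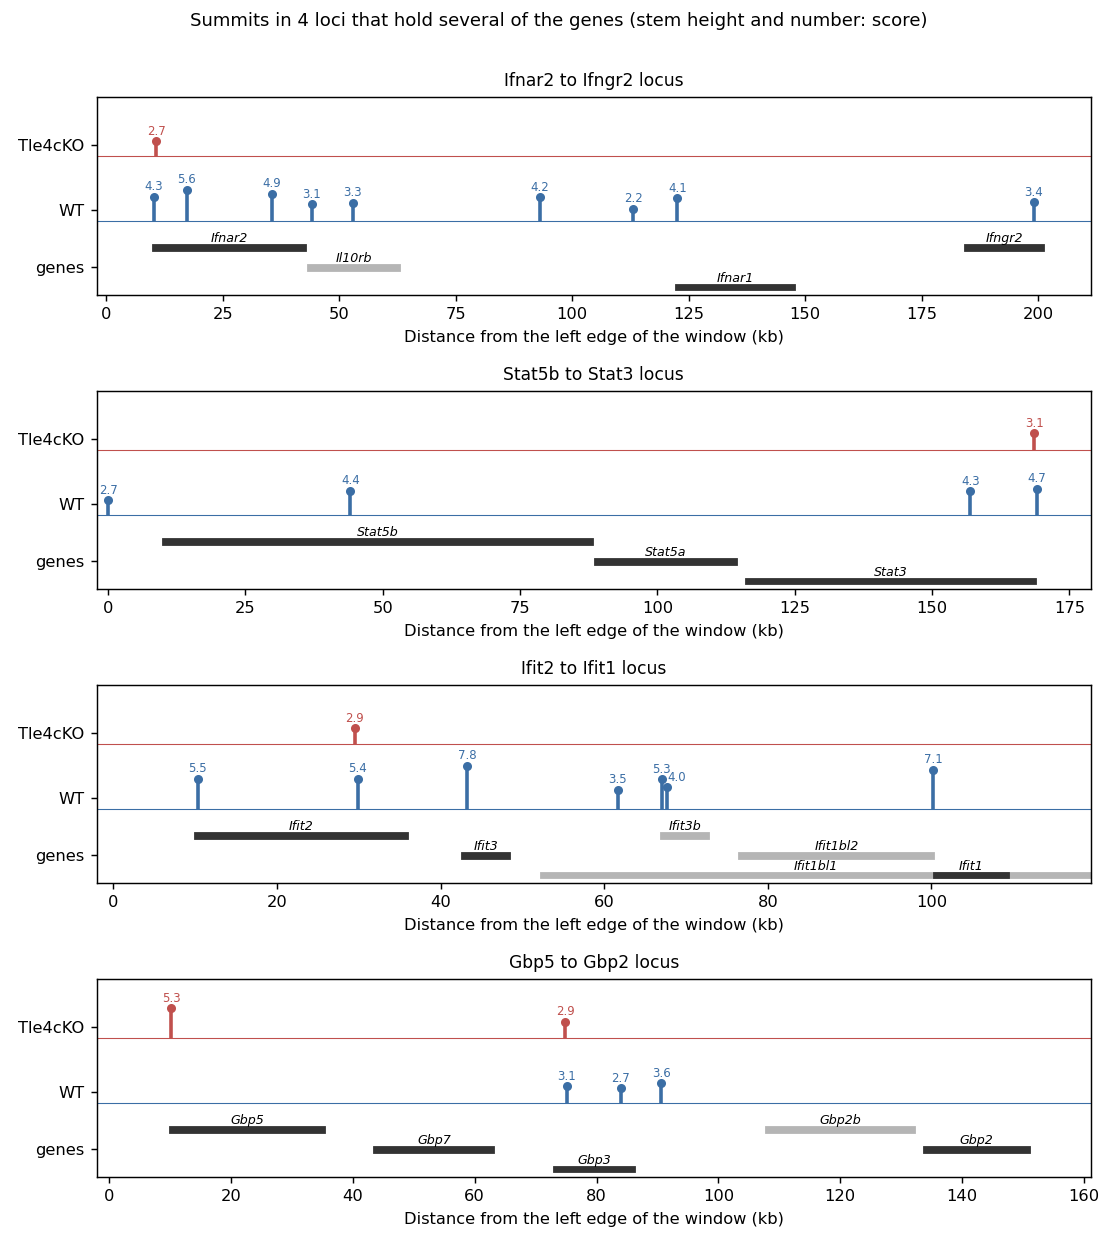
Summits of Tle4cKO (red, top line) and WT (blue, second line) in 4 loci, with distance in kb from the left edge of each window; stem height and the number above it give the score. Dark bars are genes of the list and grey bars other protein-coding genes. The receptor locus holds 1 Tle4cKO and 9 WT summits, the STAT locus 1 and 4, the Ifit locus 1 and 7, and the Gbp locus 2 and 3.

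Within 10 kb, 1 of the 14 IRF and STAT factor genes had a Tle4cKO summit (7.14%, interval 0.181 to 33.9%, all genes 11.6%) and 11 of 14 a WT summit (78.6%, 49.2 to 95.3%, all genes 39.2%). Of those 11 genes, 1 was also called in Tle4cKO (9.09%, interval 0.230 to 41.3%), where 27.6% of all genes with a WT summit were. The interval takes in the share over all genes. At gene ends 1 had a Tle4cKO summit (7.14%, all genes 6.19%) and 4 had a WT summit (28.6%, all genes 22.6%). There 1 of the 4 genes with a WT summit also had one in Tle4cKO (25%), close to the 24.7% over all genes.

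The gene marked in both was Stat3, which carries signals of interleukin-6 and interleukin-10 as well as of interferons (chromosome 11, 100886806 to 100939594). Its Tle4cKO summit scored 3.07 and lay 166 bp downstream of the start. Its WT summit scored 4.75 and lay 227 bp upstream, inside the sequence shown, with a second WT summit of 4.30 in the gene 11839 bp downstream. The paired summits were 393 bp apart. Stat5b and Stat5a lie beside it. Stat5b, a factor for growth hormone and cytokine signals, had a WT summit of 4.38 inside the gene and a weaker one 9922 bp away at an end of Ghdc, while Stat5a had none in either list, its nearest ones being 54.2 kb away in Tle4cKO and 42.5 kb away in WT.

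The remaining STAT genes were marked in WT alone. Stat6, the factor for interleukin-4 and interleukin-13, had a WT summit of 4.38 at 71 bp downstream of its start and one of 4.07 at 7077 bp from the gene. Stat2, a partner of IRF9 in the type I response, had a low WT summit of 2.21 at 199 bp, at the 3.18th percentile of that list and also at an end of Apof. Stat4, which acts in interleukin-12 signalling, had one of 4.09 at its internal start. No Tle4cKO summit lay within 10 kb of these 3 genes.

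None of the 8 IRF genes had a Tle4cKO summit within 10 kb (all genes 11.6%), and 6 had a WT summit (all genes 39.2%). At the Tle4cKO share over all genes, finding none among 8 genes is not informative. Irf2, a repressor of interferon-stimulated genes, had the highest WT score of the 51 genes, 9.07 at the 92.0th percentile, 1691 bp downstream of its start. It had 2 further WT summits in the gene, of 3.46 and 1.70. Irf4, a factor of alternatively activated macrophages, was the only IRF gene with a WT gene-end summit (5.15, 175 bp downstream), with 2 weaker ones of 2.78 and 2.15.

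The other marked IRF genes had distal summits only. Irf7, a driver of type I interferon production, had a WT summit of 5.80 that lay at an end of its neighbour Cdhr5. Irf1, a mediator of the interferon gamma response, had one of 4.53 at 6135 bp upstream. Irf5, which acts downstream of Toll-like receptors, had one of 4.13 at 3345 bp upstream, and Irf9 one of 2.42, 3318 bp from the gene. Irf3, which is activated by nucleic acid sensors, and Irf8, a lineage factor of macrophages and dendritic cells, had none. The nearest summits to Irf8 were 36.6 kb away in Tle4cKO and 36.4 kb away in WT, and those to Irf3 259 kb and 67.9 kb away.

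Of the effector genes, 3 of 30 had a gene-end summit in Tle4cKO (10%, interval 2.11 to 26.5%, all genes 6.19%) and 9 a WT summit (30%, 14.7 to 49.4%, all genes 22.6%). Within 10 kb, 7 had a Tle4cKO summit (23.3%, all genes 11.6%) and 15 a WT summit (50%, all genes 39.2%), and 14 had none in either list (46.7%, all genes 60%). Of the 15 genes with a WT summit nearby, 6 also had one in Tle4cKO (40%, interval 16.3 to 67.7%), where 27.6% of all such genes did. At gene ends the share lay on the other side of that over all genes, with 1 of 9 (11.1%, interval 0.281 to 48.2%) against 24.7%. Both intervals take in the share over all genes.

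Ifi35, an interferon-induced protein of the innate response (chromosome 11, 101448412 to 101458701), was the effector gene marked at its start in both lists. It scored 3.54 in Tle4cKO, 210 bp downstream, and 6.23 in WT, 248 bp downstream, and the summits were 38 bp apart. A further WT summit of 6.83 within its window lay at an end of the ribosomal protein gene Rpl27. Irgm1, an immunity-related GTPase that acts on vacuoles holding pathogens (chromosome 11, 48865245 to 48871420), had a Tle4cKO summit of 3.77 at 552 bp upstream and a WT summit of 5.35 at 1016 bp upstream. These lay 464 bp apart, so the gene counted as marked at its end in Tle4cKO alone because of the limit of 1 kb, and as marked in both within 2 kb. Another WT summit of 3.00 lay inside Irgm1.

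Gbp5 was the only gene with a Tle4cKO summit and no WT summit within 10 kb. It encodes a guanylate-binding GTPase that takes part in inflammasome activation (chromosome 3, 142496934 to 142522344). Its Tle4cKO summit scored 5.35, at the 71.9th percentile of that list, and lay 178 bp downstream of the start. The nearest WT summit to the gene lay 39.7 kb away, in Gbp3. Gbp3 had a Tle4cKO summit of 2.94 and WT summits of 3.08, 2.70 and 3.56, with the closest pair 288 bp apart and 1405 and 1693 bp downstream of a start. Gbp7 and Gbp2 in the same run had no summit nearby in either list. The whole window of 161 kb held 2 Tle4cKO and 3 WT summits. These are too few to compare with the 4.46 WT summits per Tle4cKO summit over the lists.

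The Ifit genes, which encode proteins that bind foreign RNA, had some of the highest WT scores of the list and 1 weak Tle4cKO summit. Ifit3 had a WT summit of 7.76 (87.4th percentile) 276 bp downstream of its start and Ifit1 one of 7.06 (83.4th percentile) 82 bp upstream. Neither had a Tle4cKO summit within 10 kb, the nearest being 13.1 kb from Ifit3 and 70.8 kb from Ifit1. Ifit2 had WT summits of 5.47 at its start and 5.42 inside the gene, and a Tle4cKO summit of 2.89 lay 367 bp from the one inside the gene. The outer bounds of Ifit1bl1 and Ifit1bl2 overlap the Ifit1 summit, so it cannot be assigned to Ifit1 alone.

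The oligoadenylate synthetase genes, whose products activate RNase L, and the related gene Oasl1 had no Tle4cKO summit within 10 kb (all genes 11.6%). At that share, finding none among so few genes is not informative. Oas1a had a WT summit of 3.61 at 338 bp downstream of its start, and a second one of 3.67 lay at an end of the neighbouring Oas1g. Oasl1, which in mice restrains IRF7 translation, had a WT summit of 5.08 at 1005 bp upstream. Oas2 and Oas3 had none, with the nearest WT summits 117 kb and 109 kb away.

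Genes of antigen presentation were marked at Tap1 and Nlrc5. Tap1, a subunit of the peptide transporter for MHC class I, had a WT summit of 4.44 at 87 bp downstream of its start, and also within 1 kb of an end of the proteasome gene Psmb9. A Tle4cKO summit of 2.29 in its window lay at an end of Psmb8, 570 bp from a WT summit of 4.62, and was assigned to Tap1 only through the window of 10 kb. Nlrc5, the transactivator of MHC class I genes, had a WT summit of 2.30 inside the gene and none in Tle4cKO.

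Sp100, a component of PML nuclear bodies, had a WT summit of 3.58 at 441 bp downstream of its start and a pair inside the gene. The pair scored 2.51 in Tle4cKO and 8.48 in WT and lay 37 bp apart. Mice carry amplified copies of parts of Sp100, and the Ifit, Oas and Gbp genes are also families of similar sequence, so reads of these genes may have been placed on a related copy. Parp14, an ADP-ribosyltransferase, had 3 WT summits within 1604 bp of its outer end (2.97, 3.16 and 3.62) and none in Tle4cKO. Adar, which edits adenosines in double-stranded RNA, had a WT summit of 3.85 at its internal start. Trim25, a ubiquitin ligase of RNA sensing, had one of 2.29 at 1017 bp downstream, and Rsad2, which encodes the antiviral protein viperin, one of 3.49 at 3751 bp upstream.

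No summit of either list lay within 10 kb of 17 genes. These were the factor genes Irf3, Irf8 and Stat5a and the effector genes Ifih1, Oas2, Oas3, Isg15, Isg20, Usp18, Bst2, Gbp2, Gbp7, Zbp1, Irgm2, Igtp, Ifi44 and Samhd1. They include the ubiquitin-like modifier Isg15 and its protease Usp18, the RNA sensor gene Ifih1 and the tetherin gene Bst2. Igtp and Irgm2, GTPase genes related to Irgm1, lie together on chromosome 11, and their window of 43.2 kb held 0 summits in each list. The median length of the 17 genes was 18989 bp, the same as over the whole list, against 12239 bp over all protein-coding genes with no summit in this window.

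Counted as summits rather than genes, 11 distinct Tle4cKO and 58 distinct WT summits lay within 10 kb of the 51 genes. Of the Tle4cKO summits, 7 lay at an end of a listed gene, 3 elsewhere inside one and 1 at an end of another gene. Of the WT summits, 19 lay at an end of a listed gene, 22 elsewhere inside one, 5 at an end of another gene only and 12 in none of these places. A WT summit within 500 bp was found for 8 of the 11 Tle4cKO summits (72.7%, all summits 79.7%). A Tle4cKO summit within 500 bp was found for 8 of the 58 WT summits (13.8%, all summits 18.0%).

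A further 83 genes of the pathway gave a wider view. At gene ends 6 had a Tle4cKO summit (7.23%, all genes 6.19%) and 43 a WT summit (51.8%, all genes 22.6%), and 5 had both (6.02%, all genes 5.6%). Of the 43 genes with a WT gene-end summit, 11.6% (interval 3.89 to 25.1%) also had one in Tle4cKO, against 24.7% of all genes with one in WT. The interval takes in that share, and neighbouring genes can share a summit. Within 10 kb, 18 of the 63 genes with a WT summit also had a Tle4cKO one (28.6%, interval 17.9 to 41.3%). Over all genes with a WT summit there, 27.6% did. The 43 genes had 46 distinct WT summits. The 5 genes with both were Pml, which organises nuclear bodies (2.94 in Tle4cKO and 7.02 in WT), the guanylate-binding gene Gbp4 (2.70 and 4.47), Ifi207 (2.10 and 5.03), Xaf1 (2.94 and 2.86) and Il2rg, the common cytokine receptor chain (2.21 and 3.49). Psmb8, an immunoproteasome subunit, had a Tle4cKO gene-end summit (2.29) and no WT one because of the limit of 1 kb. A WT summit of 4.62 lay 570 bp from the Tle4cKO one, and Psmb8 counted as marked in both within 10 kb.

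Gene-end summits were called at 6.19% of all genes in Tle4cKO and 22.6% in WT. By role within the 83 genes, 5 of 55 further interferon-induced genes had a Tle4cKO gene-end summit (9.09%) and 31 a WT one (56.4%). Of 15 receptor, adaptor and sensor genes, 1 had a Tle4cKO one (6.67%) and 8 a WT one (53.3%). Of 13 negative regulators, 0 had a Tle4cKO one (interval 0 to 24.7%, which takes in the share over all genes) and 4 a WT one (30.8%, interval 9.09 to 61.4%, likewise). The 4 were Ptpn2, a phosphatase that acts on Janus kinases and STAT proteins (12.8), Pias1 (6.15), Pias2 (4.70) and Socs1 (3.86), the main feedback inhibitor of Janus kinases. The Ptpn2 summit had the highest WT gene-end score of the 83 genes and exceeded the 9.07 at Irf2. After Ptpn2 and Pml came Gbp9 (6.87), Ifi203 (6.77) and Epsti1 (6.28), each with no Tle4cKO gene-end summit. Within 10 kb, Ifi203 did have a Tle4cKO summit, of 2.93 and 175 bp from a WT summit, whereas Gbp9 and Epsti1 had none.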

How the data were processed

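Each library has a summit file as deposited by the authors, whose last column holds −log10 p- or q-values, a reading that rests on the file layout and on lowest values of 1.37 in Tle4cKO and 1.35 in WT. Per the submitters' processing notes, the authors used cutadapt 1.14, Bowtie2 2.2.5 and mm10. Which program called the peaks, with which threshold and control, and the number of reads: not given in the sources used here.

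Mitochondrial summits, 2 in Tle4cKO and 4 in WT, were left out. Gene bounds came from RefSeq on GRCm38.p6, which lists outer ends without strand; starts and strand came from its promoter table. Calls were made in Python 3.11.15 with pandas 2.3.3, intervals (exact Clopper-Pearson, 95%) with scipy 1.17.1. The calling step was tested on simulated summits. The members and lists were chosen with earlier results of these data known. Every listed gene with a summit within 10 kb is named with values, the rest by name; of the other pathway genes, those marked at an end in both lists and the 5 with the highest WT gene-end scores, others being named after their values were seen. Rigi and Oas1b were not matched. Alternatives were other windows, other shared distances, transcription starts only, nearest genes only, a score minimum of 5 and a shortened WT list.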

Additional observations from a re-analysis of the deposited data

How the results depend on the processing

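A score minimum of 5 in both lists left gene-end summits at 2 of 51 genes in Tle4cKO, 7 in WT and 1 in both. These were 3.92% in Tle4cKO (all genes 1.97%) and 13.7% in WT (all genes 12.1%). With all summits the counts were 7, 18 and 5. Within 10 kb, summits were left at 2 genes in Tle4cKO (3.92%, all genes 3.61%), 13 in WT (25.5%, all genes 20.9%) and 1 in both. With all summits these counts were 11, 33 and 10. When only as many top WT summits were used as Tle4cKO has, the WT counts were 3 at gene ends and 7 within 10 kb. These were 5.88% (all genes 7.51%) and 13.7% (all genes 12.8%). They lay below the Tle4cKO counts of 7 and 11, and the counts in both were 1 and 4. Genes with a shared pair numbered 8 at 500 bp, 4 at 250 bp, 1 at a score of at least 5 and 2 with the shortened WT list; fewer summits and a smaller distance leave fewer calls by construction. Other end windows and transcription starts only gave gene-end counts of 5 to 8 in Tle4cKO, 15 to 21 in WT and 4 to 6 in both. Other gene windows and nearest genes only gave 10 to 14 in Tle4cKO, 31 to 37 in WT and 9 to 13 in both, and a distance of 1000 bp gave 10 pairs. With nearest genes only, Irf7 and Ifit1 had no WT summit and Tap1 no Tle4cKO summit. No paired analysis was possible because each genotype has 1 library. The depth of each library is unknown, and depth, library and genotype cannot be told apart.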

Other observations

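Of 21 genes of the interferons themselves, chosen after their values were seen, 0 had a gene-end summit in either list (all genes 6.19% in Tle4cKO and 22.6% in WT). Within 10 kb, 0 had a Tle4cKO summit (all genes 11.6%) and 2 had a WT summit (all genes 39.2%). At the share of all genes in Tle4cKO, a count of 0 among so few genes is not informative, and neighbouring ligand genes share their surroundings. Ifnk, a type I interferon of epithelium, had a WT summit of 4.76. Ifnz, in the type I interferon run of chromosome 4, had 4 WT summits within 10 kb, of 2.36, 4.76, 7.02 and 3.13. Ifnb1, the Ifna genes of that run and Ifng had none in either list.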
